A study of Mus musculus with 39 samples.

Results

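The genes described here were the 4 Notch receptor genes of the mouse, Notch1, Notch2, Notch3 and Notch4, and the 5 genes of the canonical ligands, Dll1, Dll3, Dll4, Jag1 and Jag2. They were followed through maps of where Notch and its DNA-binding partner RBPJ sat in the genome of the embryonic cortex. A peak was given to a gene when the closest start site of any protein-coding gene, measured from the edge of the peak on mm10 (GRCm38), belonged to that gene. By this rule 30 of the 20811 consensus peaks of the series belonged to the 9 genes, and 8 of the 9 genes had at least 1.

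Notch signalling passes between neighbouring cells. A ligand of the Delta or Jagged family on the surface of a cell binds a Notch receptor on the next, the receptor is cut, and its intracellular part, NICD, enters the nucleus and joins RBPJ on DNA, where it turns repressed targets into active ones. In the developing cortex the pathway keeps radial glial cells (RGCs), the neural stem cells, from turning too early into intermediate progenitors (IPCs), which go on to make neurons. The cells that differentiate present the ligand, so receptor and ligand genes are themselves part of the circuit that Notch and RBPJ act on.

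The maps were made by Targeted DamID (TaDa), in which a Dam methylase tethered to a protein marks GATC sites near the places the protein occupies, and the marked fragments are sequenced. Plasmids were electroporated into the cortex of wild-type MF1 embryos at E13.5, and the labelled cortex was dissected at E14.5. In RGCs the Hes5 promoter on the plasmid drove the fusion, and in IPCs the Tα1 promoter did so, so the cell type of each group rests on a promoter. RBPJ was the human protein, human RBPJ1, in 3 RGC samples and 3 IPC samples. Notch was the mouse protein: 2 RGC samples carried mouse NICD and 2 carried mouse NdECD, a receptor without its extracellular part, whereas all 4 IPC samples carried mouse NICD. Dam alone was profiled in 5 RGC samples and 4 IPC samples, and within a cell type the same Dam-only samples served as control for both proteins. In IPCs the fusions were supplied by the plasmid, so these maps show where the proteins could sit when present. The deposited values were positions of pooled peaks only, kept by the authors if called in every pair of a fusion sample with a Dam-only sample. Hence no peak had a height, no sample had a value of its own, no Dam-only level could be set beside a peak, and sequencing depth was unknown. Expression of cell type markers was not measured in these files, so the labelled cell types could not be checked against markers. A peak missing from a list may reflect fewer labelled cells or less binding per cell, which cannot be told apart. Intervals below are Wilson 95% intervals and cover counting error over peaks only.

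Some of these peaks held the word that RBPJ reads. The strong form of the RBPJ site, CGTGGGAA or TGTGGGAA, searched on both strands, occurred 16 times in 13 of the 30 peaks, or 43.3%, against 21.9% of all consensus peaks. The members' peaks were wider, and windows of equal width, given further on, differed by less than the members' interval. The sites that follow are among those in peaks close to a start site or called in RBPJ lists. They are shown because they mark where, within broad peaks, an RBPJ word lay. Each is read 5′ to 3′ on the strand that holds the word, with the word in capitals and 10 bases on either side, and is named by its distance from the start of the principal transcript (downstream positive).
Notch1 at -387 bp, chr2:26504192-26504219, plus strand: gtacgggtctTGTGGGAAaggaaagctg
Notch1 at -4591 bp, chr2:26508396-26508423, plus strand: cgagggttggCGTGGGAAtgttagttta
Notch1 at -30232 bp, chr2:26534037-26534064, plus strand: ttacagcctaCGTGGGAAcaggaacagg
Notch2 at -5155 bp, chr3:98008373-98008400, minus strand: tcaaagcagcCGTGGGAAataaacagac
Notch2 at 19762 bp, chr3:98033290-98033317, plus strand: tcacgtcctcTGTGGGAAgaggacacac
Notch3 at 449 bp, chr17:32166386-32166413, minus strand: gagctggagtTGTGGGAAtctggggctg
Notch3 at 2458 bp, chr17:32164377-32164404, minus strand: ggtggggggcCGTGGGAActgtagatag
Notch4 at 22780 bp, chr17:34587038-34587065, plus strand: ggccagaaccCGTGGGAAactaaaaggt
Dll1 at -5037 bp, chr17:15380996-15381023, plus strand: gtgaggggttTGTGGGAAgaaggctcta
Jag1 at 23628 bp, chr2:137092999-137093026, minus strand: ttttaggtccTGTGGGAAagccctggga

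Every one of the 4 receptor genes had a peak, and receptors took 22 of the 30 consensus peaks against 8 for the ligands. Notch1 was the nearest gene of 12 consensus peaks, Notch2 of 6, Dll1 and Jag1 of 3 each, Notch3 and Notch4 of 2 each, and Dll3 and Dll4 of 1 each. Jag2 had none. The count for Notch1 rests on its many annotated start sites, and it was 7 with start sites of protein-coding transcripts only. Among all 21911 protein-coding genes, 39.8% had at least 1 consensus peak, and 0.844% had as many as Notch1 or more. For Notch2 that share was 3.53%, for Dll1 and Jag1 10.4%, and for Notch3 and Notch4 17.8%.

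The lists drew in part on the same members. RBPJ peaks in RGCs reached 6 of the 9 genes (Notch1, Notch2, Notch4, Dll1, Dll4 and Jag1) with 14 peaks, where 31.7% of all protein-coding genes had a peak in that list. Notch4 left this set, with 0 RGC RBPJ peaks, if start sites of protein-coding transcripts only were used, and Dll4 left it with start sites of all annotated genes. RBPJ peaks in IPCs also reached 6 genes (Notch1, Notch2, Notch3, Notch4, Dll3 and Jag1), with 13 peaks and a background of 16.4% of genes. Notch1, Notch2, Notch4 and Jag1 were in both RBPJ sets. Of all consensus peaks, 82.9% were called in a single list. Notch peaks reached only 2 genes in each cell type. In RGCs these were Notch1 and Dll1, with 5 peaks and a background of 11.8% of genes. In IPCs they were Notch1 and Notch2, with 10 peaks and a background of 6.97% of genes. None of the 8 ligand peaks was called for Notch in IPCs (0 of 8, interval 0 to 32.4%), an interval that includes the 10.1% of all consensus peaks. Of the 22 receptor peaks 10 were, and 8 of those 10 belonged to Notch1, with 4 of the 8 over the exons of its intracellular part.

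**Figure D1:**
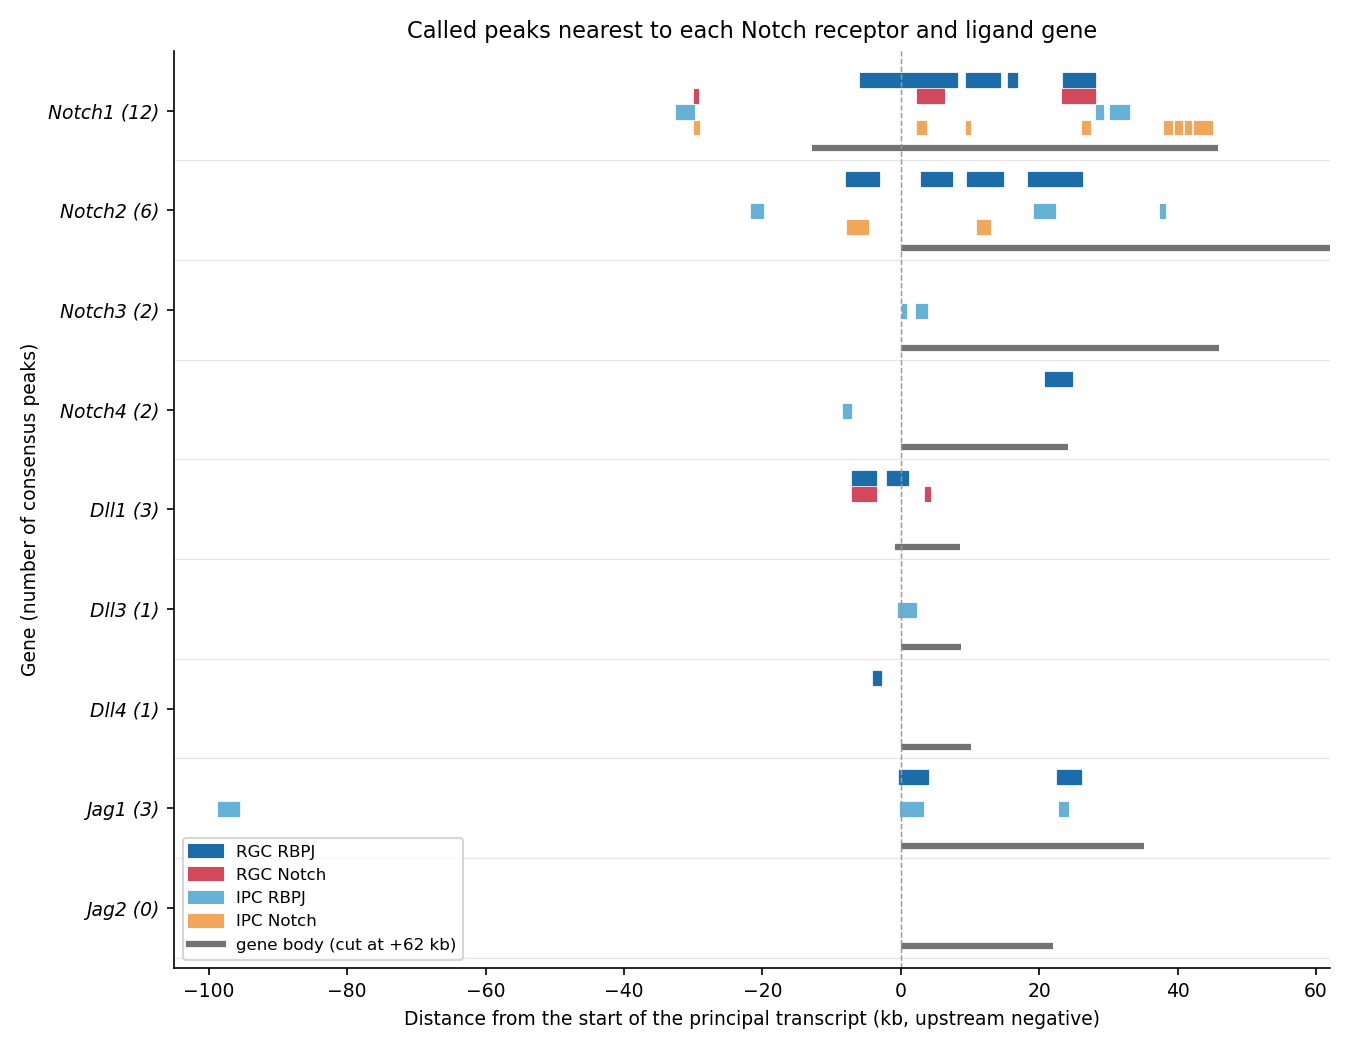
Peaks of each list nearest to the 9 genes, drawn to scale against the distance in kb from the start of the principal transcript (upstream negative), with 1 colour per list and a grey bar for the gene body. Notch1 has peaks in all 4 lists, Notch3 and Dll3 in the IPC RBPJ list only, Dll4 in the RGC RBPJ list only and Jag2 in none.

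Measured as shares of the members' 30 consensus peaks, RBPJ in RGCs was called at 14, or 46.7% (30.2 to 63.9), against 67.6% of all consensus peaks. RBPJ in IPCs was called at 13, or 43.3% (27.4 to 60.8), against 26.2%. Notch in RGCs was called at 5, or 16.7% (7.34 to 33.6), against 17.7%. Notch in IPCs was called at 10, or 33.3% (19.2 to 51.2), against 10.1%. Both IPC shares were above those of all consensus peaks. For IPC RBPJ this did not rest on Notch1, since without that gene 10 of 18 peaks were called, or 55.6% (33.7 to 75.4). However, 5 of the 13 IPC RBPJ peaks held no GATC site, as did 33.6% of all peaks in that list. The share of IPC RBPJ without such peaks was not computed. The IPC Notch share did rest on Notch1, since without that gene 2 of 18 peaks were called, or 11.1% (3.10 to 32.8).

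**Figure D2:**
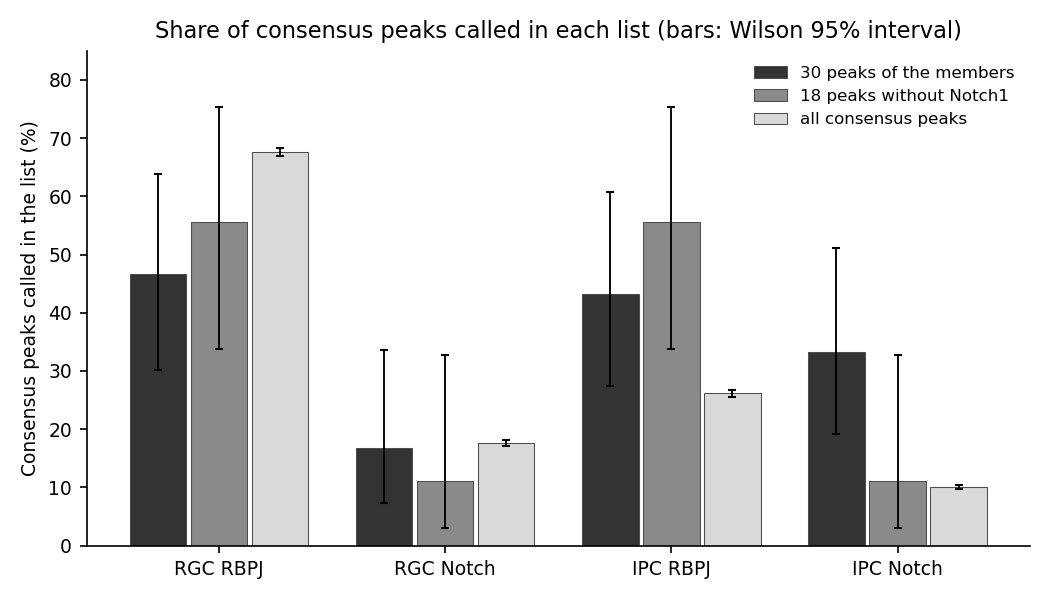
Share of consensus peaks called in each list, in percent, for the 30 peaks of the members, for the 18 peaks left without Notch1, and for all consensus peaks, with Wilson 95% intervals. The IPC Notch share falls from 33.3% to 11.1% without Notch1, next to 10.1% of all consensus peaks, whereas the IPC RBPJ share stays above the 26.2% of all consensus peaks.

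Notch1 (ENSMUSG00000026923), the receptor whose intracellular part was used in the Notch fusions, lies on chromosome 2 from 26457903 to 26516663 on the minus strand. Its principal transcript starts at 26503822 and has 34 exons. Its 12 consensus peaks stood in a stretch of 94.4 kb nearest to its start sites, or 12.7 per 100 kb, against 0.763 per 100 kb over the genome. This density includes the 4 peaks over the exons of the intracellular part, described below. It rests on all annotated start sites, and the count was 7 with those of protein-coding transcripts only. The 12 peaks fell into 3 neighbourhoods: the start site with the first introns, the middle and 3′ exons, and a site upstream of the gene.

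Around the start site, RBPJ in RGCs covered 14115 bp without a break, from 26495635 to 26509749, which included the start of the principal transcript and exons 1 and 2. This was the widest peak of the members, and only 4 consensus peaks of the series, itself included, were at least as wide. Notch was called inside it in both cell types, but over narrower stretches within intron 2. In RGCs the Notch peak ran from 26497545 to 26501431, and in IPCs from 26500245 to 26501516. Neither Notch peak reached the start site. The consensus peak was in cluster 6. Intron 2 held a further pair. From 26489521 to 26494383 (cluster 5) an RGC RBPJ peak overlapped an IPC Notch peak, and from 26487080 to 26488372 (cluster 6) RBPJ was called in RGCs only.

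The wide RBPJ peak held 34 GATC sites, 24 copies of the core word TTCCCA and 3 of the strong RBPJ form. The DNA just upstream of the start site shows how these sit together. The 300 bases from 400 to 101 bp before the start of the principal transcript (chr2:26503923-26504222, minus strand, GRCm38) are printed with the RBPJ word, here in its reverse reading TTCCCACA, and the 3 GATC sites in capitals.
Notch1 upstream: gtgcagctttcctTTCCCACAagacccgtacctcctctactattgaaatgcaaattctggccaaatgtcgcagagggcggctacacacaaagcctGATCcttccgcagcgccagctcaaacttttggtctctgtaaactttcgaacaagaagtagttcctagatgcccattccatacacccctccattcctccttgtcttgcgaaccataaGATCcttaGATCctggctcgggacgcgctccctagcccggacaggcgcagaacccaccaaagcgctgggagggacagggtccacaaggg

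The middle of Notch1 held calls of all 4 lists. From 26475748 to 26480510, over exons 7 to 15, which encode part of the extracellular EGF repeats, lay the only other member peak called in 3 lists, RGC RBPJ, RGC Notch and IPC Notch (cluster 1). Immediately 3′ of it, RBPJ in IPCs was called from 26474545 to 26475635 in intron 15 and from 26470769 to 26473553 over exons 18 to 21, both in cluster 3. Neither of these IPC RBPJ peaks held a GATC site. Both proteins of IPCs were thus called within this part of the gene, at neighbouring and not at shared positions.

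Upstream of Notch1, midpoints 29.6 and 31.2 kb from the principal start, a pair of peaks adjoined each other. Notch was called in both cell types from 26533033 to 26533753 (cluster 2), and RBPJ in IPCs from 26533756 to 26536351 (cluster 7). The gap between them was 2 bp. The Notch peak held 2 copies of TTCCCA and no strong form, whereas the IPC RBPJ peak held 7 copies of TTCCCA and the strong form printed above at -30232 bp. RBPJ in RGCs was not called at either.

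The 3′ end of Notch1 carried peaks of 1 list only. Notch in IPCs was called in 4 separate peaks, all in cluster 2, from 26458793 to 26461395 over exon 34, from 26461917 to 26462710 over exons 32 and 33, from 26463155 to 26464238 over exon 31, and from 26464574 to 26465756 over exons 28 to 30. The first of them also touched 0610009E02Rik, a non-coding transcript on the other strand. These exons encode the intracellular part of the receptor, the stretch that the Notch fusions carry as cDNA. Of the 2352 coding bases that follow the membrane stretch, which spread over 5.93 kb of the gene in 7 exons, the IPC Notch peaks covered 2352, or 100%. Each of the other 3 lists covered 0 of them. Of the 5241 coding bases before that point, IPC Notch peaks covered 5.67%, RGC RBPJ peaks 28.2%, RGC Notch peaks 26.1% and IPC RBPJ peaks 14.7%. Coding sequence made up 55.4%, 31.0%, 27.3% and 39.8% of the bases of the 4 peaks in the order given, against 1.59% of the bases of all IPC Notch peaks. Peaks over other exons of Notch1 came close to the lower of these shares. Within exons 7 to 15 the share was 28.7% for RGC Notch, 29.1% for RGC RBPJ and 17.4% for IPC Notch. Over exons 18 to 21 it was 27.6% for IPC RBPJ. The RGC RBPJ peak over the start site had 0.992%, and the remaining Notch1 peaks held no coding sequence.

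The 4 peaks followed the exons and broke at the introns between exons 30 and 31, 31 and 32, and 33 and 34. Beyond their outermost intracellular coding base, in the order given above, they extended on the 5′ side of the gene by 419, 221, 233 and 294 bp, and on the 3′ side by 741, 231, 555 and 232 bp. The peak over exon 31 held no GATC site in the genome, although the spliced intracellular coding sequence held 6. The RGC Notch samples carried the same part of Notch1 on their plasmids, and no RGC Notch peak was called there. The sources used here give the plasmid inserts as the intracellular domain with or without the transmembrane domain, without end positions, and the part of plasmid reads in these 4 peaks was not tested. Without these 4 peaks, an alternative chosen after the data were seen, Notch1 had 8 consensus peaks and 4 in the IPC Notch list, and the members had 6 in the IPC Notch list in place of 10.

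**Figure D3:**
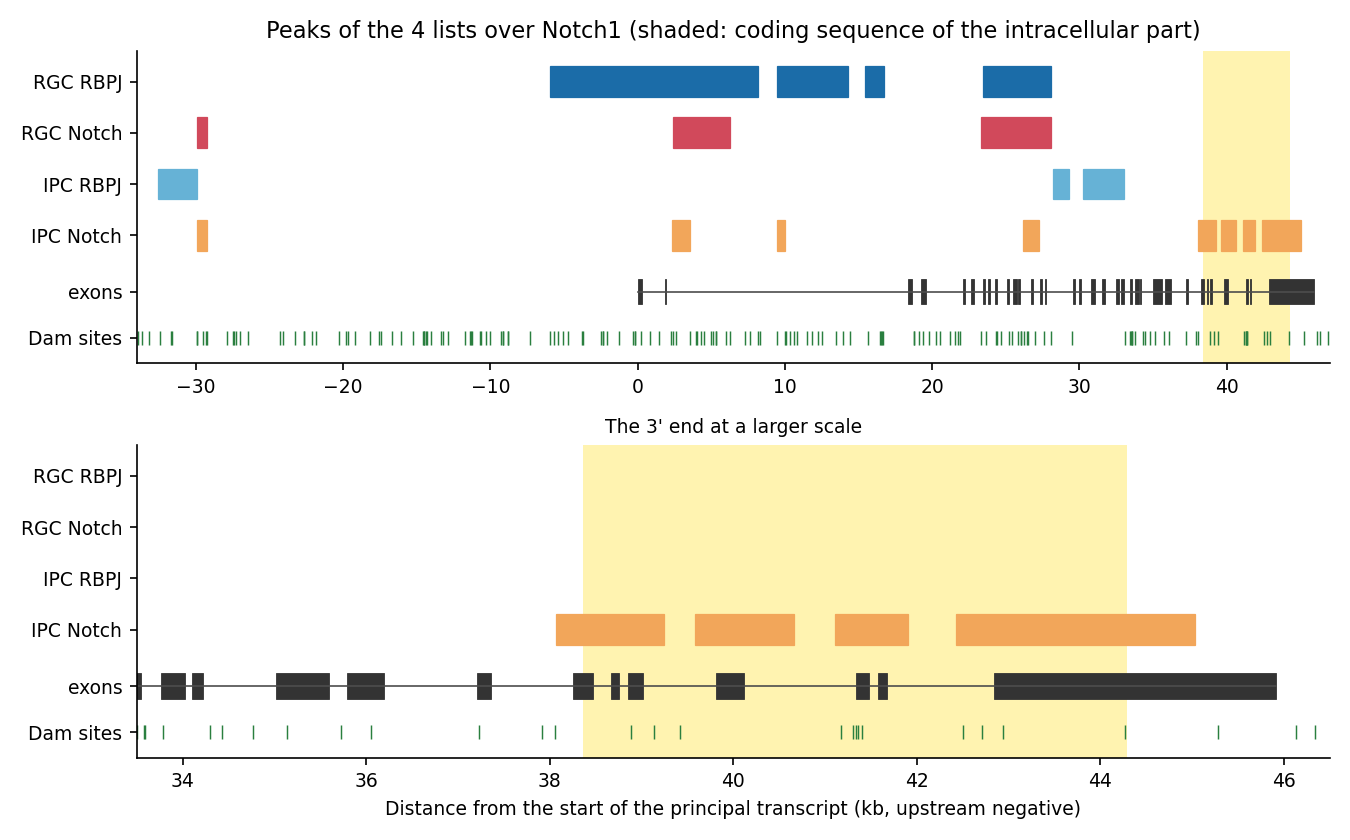
Peaks of the 4 lists over Notch1 against the distance in kb from the start of the principal transcript, above the exons and the GATC sites that Dam methylates (green ticks), for the whole locus and for the 3′ end. The shaded stretch spans the coding sequence of the intracellular part, which the 4 IPC Notch peaks cover to 100% and the other lists to 0.

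Notch2 (ENSMUSG00000027878), the receptor that shares cortical progenitors with Notch1, lies on chromosome 3 from 98013527 to 98150361 on the plus strand. Its 6 consensus peaks stood upstream and in the first introns, and none covered a start site or an exon. RBPJ in RGCs was called at 4 of them: from 98005597 to 98010341 upstream (cluster 6), and in intron 1 from 98016399 to 98020984 (cluster 5), from 98023051 to 98028309 (cluster 7) and from 98031951 to 98039764 (cluster 7). Notch in IPCs was called within the first and the third of these. RBPJ in IPCs was called within the last, and alone from 97991847 to 97993663 upstream (cluster 3) and from 98051058 to 98051725 in intron 2 (cluster 7). Notch in RGCs was called at none of the 6, where 17.7% of all consensus peaks were called in that list. A strong RBPJ word lay in each of the 4 RGC RBPJ peaks and in neither of the peaks called for IPC RBPJ alone. The peak from 98031951 to 98039764 also overlapped Gm42819, an unclassified transcript inside Notch2.

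Notch3 (ENSMUSG00000038146) and Notch4 (ENSMUSG00000015468), receptors best known from the cells of blood vessels, had fewer peaks. Notch3 lies on chromosome 17 from 32120820 to 32166852 on the minus strand, and both its peaks were called for RBPJ in IPCs only. The peak from 32166081 to 32166742 touched exon 1 and ended 110 bp from the start site (cluster 7). The other, from 32162988 to 32164582, lay at exon 2 (cluster 3) and held no GATC site. Each held a strong RBPJ word, and the first had 4.53 copies of TTCCCA per kb, the highest density of the 30 peaks. Notch4 lies on chromosome 17 from 34564268 to 34588503 on the plus strand. RBPJ in RGCs was called over its last exons, 27 to 30, from 34585143 to 34588952 (cluster 4), a peak that was no longer nearest to Notch4 with start sites of protein-coding transcripts only. RBPJ in IPCs was called from 34555949 to 34557023, 7.78 kb upstream of the principal start (cluster 3), in a peak with no GATC site and no TTCCCA. Notch was called at neither receptor gene in either cell type. Among all protein-coding genes, 11.8% had a Notch peak in RGCs and 6.97% in IPCs.

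Dll1 (ENSMUSG00000014773), the main Delta ligand of cells that leave the stem cell state, lies on chromosome 17 from 15367354 to 15376872 on the minus strand, and was the only ligand gene with Notch peaks. RBPJ in RGCs covered its start site from 15374912 to 15377962 (cluster 6). Further upstream, from 15379508 to 15382967, RBPJ and Notch were both called in RGCs (cluster 6), and this peak held the strong RBPJ word at -5037 bp. Notch in RGCs was also called alone from 15371786 to 15372481, in intron 4 (cluster 4). No IPC list had a peak at Dll1. The peak over the start site also covered the start of A930024N18Rik, a long non-coding RNA read in the opposite direction, so the peak cannot be given to either gene alone.

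Dll3 (ENSMUSG00000003436), an atypical ligand that inhibits Notch within its own cell, and Dll4 (ENSMUSG00000027314), a ligand best known from sprouting vessels, had 1 peak each. At Dll3, on chromosome 7, RBPJ in IPCs covered the start site from 28300036 to 28302565 and reached exon 3 (cluster 3). This peak held 5 GATC sites and 5 copies of TTCCCA. At Dll4, on chromosome 2, RBPJ in RGCs was called from 119321815 to 119322869, 3.44 kb upstream of the start (cluster 4), within Gm14207, a non-coding transcript on the other strand. It had the highest GC content of the 30 peaks, 62.5%, and no TTCCCA. With start sites of all annotated genes this peak was not nearest to Dll4. Dll1 and Dll4 had RGC peaks only and Dll3 an IPC peak only, with 3, 1 and 1 peaks to judge from, and 82.9% of all consensus peaks were called in a single list.

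Jag1 (ENSMUSG00000027276), the Jagged ligand, lies on chromosome 2 from 137081456 to 137116644 on the minus strand, and had 2 peaks called for RBPJ in both cell types, as were 6.85% of all consensus peaks. They lay over its start site, from 137112738 to 137116925 (cluster 2), and over exons 9 to 13, from 137090551 to 137093997 (cluster 7). The only other member peak called for RBPJ in both cell types was that of Notch2 in intron 1. A peak of IPC RBPJ alone lay 97.2 kb upstream, from 137212282 to 137215364 (cluster 3), with no GATC site. It was the member peak farthest from its gene, and the 691 kb nearest to Jag1 held 3 peaks in all, or 0.434 per 100 kb. Jag2 (ENSMUSG00000002799), on chromosome 12, had no peak in any list. The consensus peak closest to its principal start was 19.8 kb away, was called for Notch in IPCs and was nearer to Nudt14.

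Some members' peaks were shared between lists, and few, as among all consensus peaks, were called for both Notch and RBPJ in 1 cell type. Of the 30 peaks, 10 were called in at least 2 lists, or 33.3% (19.2 to 51.2), where 17.1% of all consensus peaks were. Without Notch1 it was 6 of 18, again 33.3% (16.3 to 56.3), an interval that includes the 17.1%. Both proteins were called in RGCs at 3 peaks (Notch1 at the start site and in exons 7 to 15, and Dll1 upstream), or 10%, against 7.77% of all consensus peaks. Both were called in IPCs at 0 of 30 (interval 0 to 11.4%), against 2.36%. RBPJ in RGCs combined with Notch in IPCs at 5 peaks, 3 of Notch1 and 2 of Notch2, or 16.7% (7.34 to 33.6), against 5.42%. Notch was called in both cell types at 3 peaks, all of Notch1, or 10% (3.46 to 25.6), against 2.37% of all consensus peaks. Both lists of RGCs, and both of IPCs, were called against common Dam-only controls, and the part of these controls in the overlap was not tested.

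The authors grouped all consensus peaks into 8 clusters by binding intensity averaged over samples. In their description clusters 2, 4, 6 and 7 stand for binding of both proteins, cluster 1 for Notch in RGCs, clusters 5 and 8 for RBPJ in RGCs and cluster 3 for RBPJ in IPCs. Of the members' peaks 20 of 30, or 66.7% (48.8 to 80.8), were in clusters 2, 4, 6 and 7, against 36.3% of all consensus peaks. Without Notch1 it was 12 of 18, also 66.7%. None was in cluster 8 (interval 0 to 11.4%), which held 14.4% of all consensus peaks, and 2 were in cluster 5, which held 22.5%. Cluster 2 held 6 of them, or 20% (9.51 to 37.3), against 4.76%, but 4 of the 6 were the peaks over the 3′ exons of Notch1. The cluster labels went further than the calls: of the 20 member peaks in clusters 2, 4, 6 and 7, both proteins were called in 1 cell type at 2, or 10% (2.79 to 30.1), against 19.6% of all consensus peaks in these clusters. Cluster 3 held 7 member peaks, or 23.3% (11.8 to 40.9), against 16.3% of all consensus peaks, a share inside that interval. These 7 were a pair in Notch1 and 1 each at Notch2, Notch3, Notch4, Dll3 and Jag1, all called for RBPJ in IPCs alone.

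**Figure D4:**
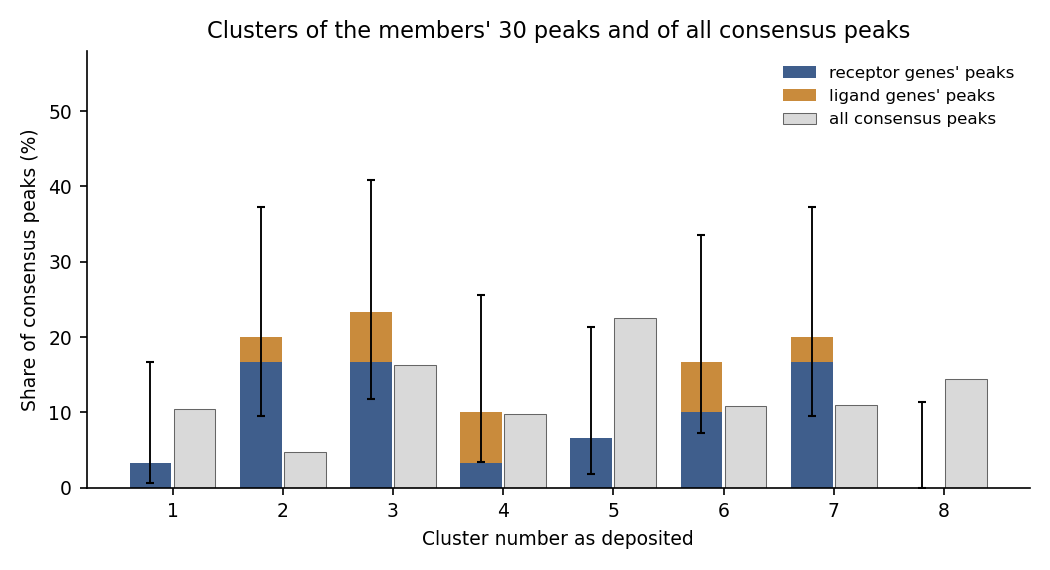
Share of the members' 30 peaks in each deposited cluster, in percent, split into receptor and ligand genes, beside the share of all consensus peaks (grey). Black lines are Wilson 95% intervals of the members' share, and clusters 5 and 8, which hold 22.5% and 14.4% of all consensus peaks, hold 6.67% and 0 of the members' peaks.

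GATC sites bear on these peaks because Dam can mark no other place. In the IPC RBPJ list 33.6% of all peaks held no GATC site, whereas the share was 1.32% in the RGC RBPJ list, 0.702% in the RGC Notch list and 5.61% in the IPC Notch list. Of the members' 13 IPC RBPJ peaks, 5 held none: a pair in Notch1 and 1 each at Notch3, Notch4 and Jag1, all in cluster 3. The 2 cluster 3 peaks with a GATC site were that of Dll3, with 5, and that of Notch2, with 1. The only other member peak without GATC was that of IPC Notch over exon 31 of Notch1. With peaks that lacked GATC left out, the IPC RBPJ list kept 8 peaks near the members. Notch1 lost 2 of its IPC RBPJ peaks and Notch3, Notch4 and Jag1 each lost 1, and Notch1, Notch2, Notch3, Dll3 and Jag1 still had at least 1 in that list. The part of missing GATC sites in these calls was not tested.

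Most of the members' peaks stood close to a start site. Of the 30, 19 covered or came within 5 kb of a start site of a member, or 63.3% (45.5 to 78.1), against 31.1% of all consensus peaks. Many of these start sites were not those of the main transcripts: Notch1 has 11 annotated start sites, several of them of short non-coding transcripts among its 3′ exons. With start sites of protein-coding transcripts only, the members had 24 peaks, of which 11 lay within 5 kb, or 45.8%, against 26.3% of all. Start sites were covered by 6 peaks, or 20%, close to the 16.6% of all consensus peaks. The principal start sites of Notch1, Dll1, Dll3 and Jag1 were covered, those of Notch1 and Dll1 by RBPJ in RGCs, that of Dll3 by RBPJ in IPCs and that of Jag1 by RBPJ in both.

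The number of peaks was also set against the stretch of genome involved. The 9 genes together were nearest to 1300 kb, which held 2.31 peaks per 100 kb, against 0.763 over the genome. Without Notch1 the density was 1.49, and without the 4 peaks over the 3′ exons of Notch1 it was 2.0. Dll3 had 1 peak in only 11.6 kb, or 8.61 per 100 kb, and Notch2 had 4.73. Among all genes with a peak the median was 1.78 per 100 kb, so Jag1, with 0.434, and Dll1, with 1.77, were not above it. The members' peaks had a median width of 2599.5 bp, against 1890 bp for all consensus peaks.

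**Figure D5:**
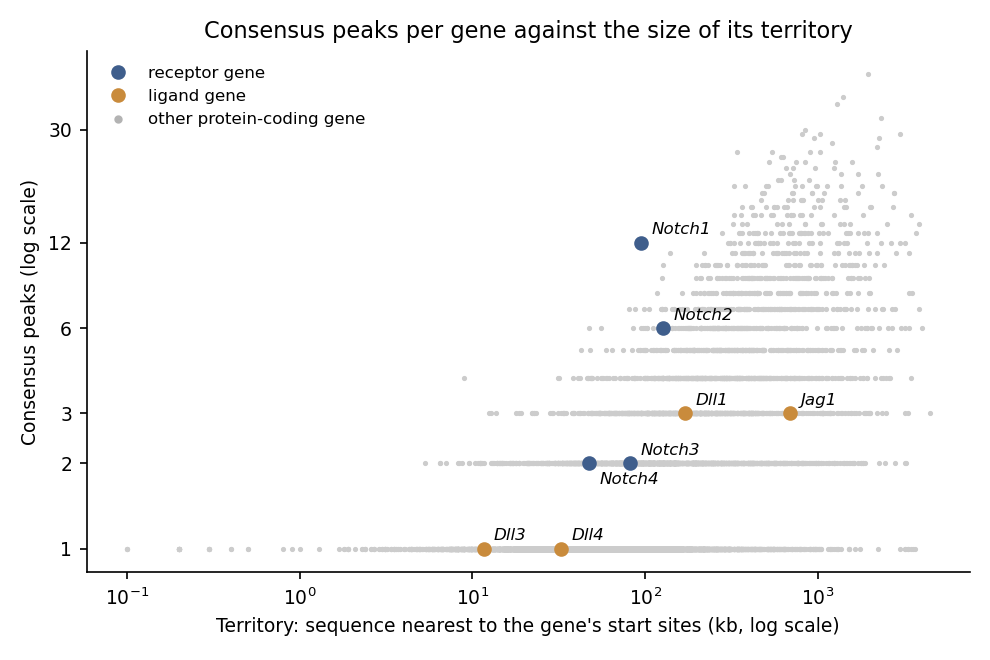
Consensus peaks per gene against the stretch of genome nearest to the gene's start sites, in kb, both on log scales, for the 8 members with a peak (blue receptors, orange ligands) and all other protein-coding genes with a peak (grey). Notch1, with 12 peaks in 94.4 kb, sits at the upper left edge of the cloud, whereas Jag1, with 3 peaks in 691 kb, lies at the lower right.

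In sequence the members' peaks were richer in G and C than others, with a median of 54.1%, or 49.2% without Notch1, against 45.3%. The core word TTCCCA, counted on both strands, occurred 128 times, or 1.40 per kb, against 1.17 per kb over all consensus peaks. The longer word TTCCCAC, which contains it, occurred 0.339 times per kb against 0.27. The strong form, which contains TTCCCAC in reverse, occurred 0.175 times per kb against 0.118, and was found in 43.3% of the members' peaks and 21.9% of all. Since wider peaks hold more words, windows of 500 bp at the centre of each peak were compared as well. There TTCCCA was found in 50% of the members' windows (33.2 to 66.8) and 44.5% of all, and the strong form in 10% (3.46 to 25.6) and 6.18%, whereas TTCCCAC was found in 10% of the members' windows (3.46 to 25.6) and 13.0% of all. Over whole peaks TTCCCA was present in 80.0% of the members' and 82.9% of all. The window shares of all consensus peaks lie within the members' intervals. Head-to-head pairs of RBPJ words, TGNGAA followed by TTCNCA after 15 to 17 bp with at least 1 of them in its full form, which Notch complexes can bind as dimers, were found in 0 of the 30 peaks and in 0.947% of all consensus peaks.

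The promoters proper were searched as well. RefSeq windows from 250 bp before to 50 bp after the start (GRCm38.p6) were given for all 9 genes, with 10 windows in all, since Dll1 has 2. None of the 10 held TTCCCA on either strand (interval 0 to 27.8%), where 25.6% of 32851 promoter windows did, a share inside that interval. Within the members' peaks, the strong word nearest to a principal start was that of Notch1 at -387 bp, followed by that of Notch3 at 449 bp.

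By their counts over the 8 clusters, the genes most like Notch1 were Ankrd55 (Bray-Curtis dissimilarity 0.20, where 0 means equal counts), Frmd4b (0.25) and Nhsl1 (0.273, 1 of 2 genes with that value). Those most like Notch2 were Nrcam and Pbx3 (0.0769 each) and 1700066M21Rik (0.0909, 1 of 3 genes with that value). These values compare 8 small counts per gene and describe likeness of cluster counts only. For Notch1 they include 5 peaks in cluster 2, of which 4 were those over its 3′ exons, and likeness without these 4 was not computed.

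Other genes of the pathway showed where the receptors and ligands stand within it. Of 30 such genes, 18 had a consensus peak, or 60%, against the 39.8% of all genes. The nuclear complex group, which is RBPJ, its paralogue, its coactivators and a partner, had peaks at 5 of 6 genes. It had 18 RGC RBPJ, 6 RGC Notch, 11 IPC RBPJ and 2 IPC Notch peaks. Maml3 alone had 12 of the group's 24 consensus peaks, with 8 of the RGC RBPJ and 5 of the RGC Notch peaks. Release enzymes that cut the receptor had peaks at 4 of 8 genes, with 0 Notch peaks in either cell type, where 11.8% of all genes had a Notch peak in RGCs and 6.97% in IPCs. Glycosyltransferases that modify the receptor had them at 4 of 5, ubiquitin ligases and adaptors at 3 of 8, and other ligands at 2 of 3. Glycosyltransferases had 1 Notch peak in RGCs and 0 in IPCs, and other ligands 0 in RGCs and 2 in IPCs. Ubiquitin ligases and adaptors had 5 Notch peaks in RGCs, at 3 genes, and 1 in IPCs. The genes with the most peaks were Maml3, a coactivator of NICD, with 12, Fbxw7, which marks NICD for degradation, with 6, and Dlk1, a non-canonical ligand, with 5, a count shared by 1 other gene. All 5 peaks of Dlk1 were called for RBPJ in RGCs alone. Rbpj itself, named here after its values were seen, had 3 peaks, all in cluster 7 and all called for RBPJ in both cell types, a pattern shared by 1 peak each of Notch2 and Jag1. Of all consensus peaks, 11.0% were in cluster 7 and 6.85% were called for RBPJ in both cell types.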

How the data were processed

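Reads were mapped to mm10 by the authors, who ran Macs2 in broad mode on every combination of a fusion sample and a Dam-only sample. They applied an FDR threshold and retained a peak if it was found in all combinations of its condition. The deposited files are 4 pooled lists of peak positions in bp and 1 file of consensus peaks, made by merging overlapping peaks, with a k-means cluster number for each. These files hold no count, height, fold or q-value and 0 columns of single samples, so depth is unknown, no replicate can be left out and no test over samples was run. The 9 Dam-only samples entered the peak calls only, and 16 samples of other constructs or cell types were not used here. The members and gene lists were chosen with earlier results of these data known.

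Peaks were assigned here to the nearest start site of any transcript of a protein-coding gene (GENCODE annotation of GRCm38), from the peak's edge, on 21 nuclear chromosomes, which leaves 20809 consensus peaks. The cluster file's list names were checked against overlaps of at least 1 bp and differed at 0 peaks. The principal transcript was the top-ranked APPRIS one. The intracellular part of Notch1 was taken as the coding sequence after its 1 uncharged stretch of 22 residues that ends in basic residues. A gene's territory is the sequence nearer to its start sites than to any other gene's. Words were counted on both strands. The sequence of 1 site is not reported here. All members were named, the 3 genes most like a member with at least 5 peaks, the 3 pathway genes with the most peaks (ties by symbol), Rbpj, added after its values were seen, and genes that a member's peak touches. Python 3.11.15, numpy 2.4.6, pandas 2.3.3, scipy 1.17.1, pysam 0.24.0 and matplotlib 3.10.9 were used, and the assignment, territory and word searches were tested on simulated data. Alternatives covered the distance measure, the set of start sites, peak width, number of lists, overlap, motif word, Notch1, and, added after the data were seen, the 4 peaks over its intracellular exons and peaks without GATC.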

Additional observations from a re-analysis of the deposited data

How the results depend on the processing

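Of 57 alternative values of 10 results, 46 stayed within 1.5 times a reported count or within the 95% interval of a reported share or density. Some of the 46 could not change: keeping peaks within 100 kb removed none, since the farthest member peak lay 95.6 kb from a start site. Without Notch1 the members had 18 consensus peaks, and the RGC Notch and IPC Notch lists had 2 peaks each. Among consensus peaks called in at least 2 lists the members had 10. Keeping peaks of at least 1000 bp left 3 in the RGC Notch list. With start sites of protein-coding transcripts only, the IPC Notch list kept 6, since Notch1 then had 4 in that list in place of 8 and 7 consensus peaks in place of 12, while Notch4 had 0 RGC RBPJ peaks in place of 1, and leaving out the 4 peaks over the intracellular exons of Notch1 also gave 6. Leaving out peaks without GATC left 8 in the IPC RBPJ list. Within 2 kb of a start site lay 40.0% of the members' peaks, against 24.6% of all consensus peaks. The longer word TTCCCAC had 0.339 copies per kb, fewer by construction. Counting bases and peaks within 100 kb of start sites only, the density was 3.85 per 100 kb, against 0.956 for all genes. With start sites of all annotated genes Dll4 had no peak and Notch2 had 3. The shares in clusters 2, 4, 6 and 7 and in at least 2 lists stayed within their intervals under each alternative run.

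No paired analysis was possible because the files hold pooled peak positions and no value of a single sample. For the same reason no replicate could be left out, and the spread between replicates behind any of these counts is unknown. Counts of 1 to 14 peaks per list limit every comparison between members.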
